A study of Mus musculus with 8 samples.

Results

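The interaction of genotype and training asks whether trace fear conditioning (TFC) moved a transcript differently in mice without the Cav3.2 channel than in wild-type mice. It was computed for each probe as the training difference in the knockout minus the training difference in wild type, (KTL − KNL) − (WTL − WNL), on the log2 scale, and it drew on all 8 arrays of the series. Of 16588 probes tested, 2207 (13.3%) had an interaction above 0 and 1403 (8.46%) an interaction below 0, at a limma adjusted p under 0.01 and a difference over 2-fold. An interaction above 0 means that training raised the transcript more, or lowered it less, in the knockout. Taking the brightest probe of each gene, 1527 of 11136 genes (13.7%) lay above 0 and 918 (8.24%) below it.

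The tissue was the left hippocampus of male C57BL/6 mice of 6 to 8 weeks, housed 1 to a cage. WNL were naive wild-type mice, KNL were naive mice homozygous for a deletion of Cacna1h, the gene of the pore-forming subunit of Cav3.2, and WTL and KTL were mice of the same genotypes that had been through TFC and were killed straight after the test of contextual memory. The methods describe purchased wild-type mice and a knockout line crossed for several generations to the same background, while other passages of the study speak of littermates, so whether the source of the mice differed between the genotypes is not settled. RNA was pooled from 3 mice per sample and each group has 2 arrays, and since the labels give 3 animals in a group, both arrays of a group may carry RNA of 1 pool, so that every p-value here measures the spread between arrays, which may be technical. Trained mice had handling, shock and memory retrieval together, so the 3 cannot be told apart. The study calls the naive mice untrained, yet a legend gives locomotor activity of all groups from the start of training. What the naive mice went through is therefore not settled.

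The KNL arrays stood apart from the other 6. Over all probes, arrays of 1 group correlated at r = 0.979 to 0.993, and arrays of WNL, WTL and KTL correlated with arrays of another group up to 0.985, whereas the KNL arrays reached at most 0.938 with any other group. Each KNL array enters every interaction, and the interaction cannot be computed without at least 1 of them. Leaving out 1 array at a time gave 241 to 3513 called probes, with 1805 called without KNL replicate 1, 682 without KNL replicate 2, 497 without KTL replicate 1 and 241 (234 above and 7 below 0) without KTL replicate 2. No called probe changed sign in any of these 8 fits, and for genes given with their standard error the number of these fits that kept the call follows, in most cases, as a count out of 8. Genes given by their interaction alone were called with all 8 arrays. Where the range of a list's count over these fits is given, it shows how far such calls rest on single arrays.

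**Figure D1:**
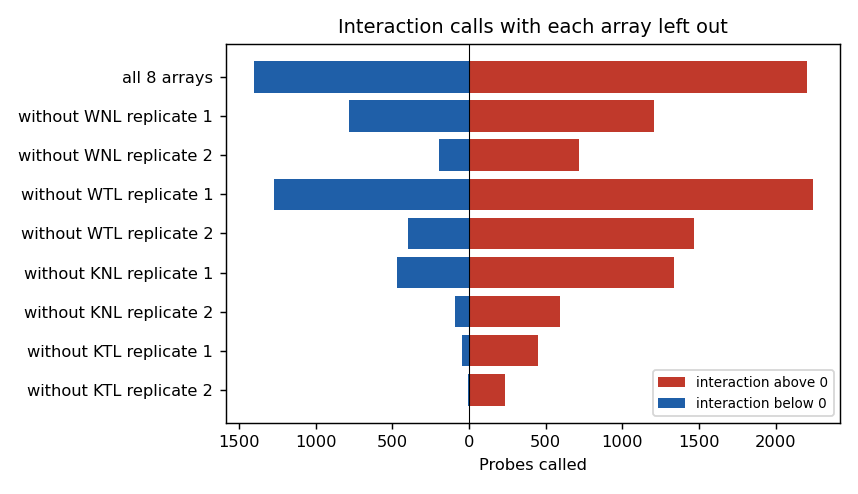
Number of probes called in the interaction (x axis) with all 8 arrays and with each array left out in turn (y axis), red to the right for interactions above 0 and blue to the left for those below 0. All 8 arrays gave 2207 and 1403 calls, and the fewest calls, 234 and 7, were made without KTL replicate 2.

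Cav3.2 belongs to the T-type calcium channels, which open near the resting potential and let calcium into the cell during small depolarizations. Calcium entry and synaptic activity in hippocampal neurons act on the MAPK cascade and on CREB, and these switch on immediate early genes such as Fos and Egr1 within minutes, without new protein synthesis. In trace fear conditioning a silent gap separates tone and shock, and both the trace memory and the memory of the context depend on the hippocampus.

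Cacna1h itself read lower in both knockout groups than in naive wild type and had no detectable interaction. Its probe read 2732 and 2985 on the WNL arrays, 2836 and 1838 on WTL, 1929 and 1377 on KNL and 1171 and 1395 on KTL. The knockout arrays lay below all WNL arrays, and KNL replicate 1 overlapped WTL. The interaction was -0.03 ± 0.36 (SE, log2, 2 arrays a group, limma adjusted p = 0.954). The position of the probe within the gene is not given in the sources used here, so the remaining intensity checks nothing about the deletion.

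The called probes were sorted by which genotype moved. A genotype counted as moving where its mean training difference was at least 1.5-fold and its TFC arrays both lay above or both below its naive arrays; over all probes this held in wild type for 1.57% upward and 3.22% downward, and in the knockout for 23.4% upward and 28.2% downward. Only the knockout moved in 1907 called probes upward and in 1263 downward. Both genotypes moved, in opposite directions, in 269 that were higher after training in the knockout and lower in wild type and in 96 of the reverse. Wild type alone moved in 48, neither genotype reached the limit in 27, and no called probe moved the same way in both. By genes the counts were 1325 and 828 for the knockout alone, 179 and 58 for the opposed, 21 upward and 13 downward for wild type alone, and 21 for neither.

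These classes are descriptions of the called probes and rest on a limit of size. By limma's own call of each training contrast, which found 2088 probes up (12.6%) and 1244 down (7.5%) in the knockout and 0 (0.0%) in wild type (2506 at an unadjusted p under 0.05, and 0 calls with a trended and robust spread as well), no probe was opposed, 1813 and 838 moved in the knockout alone and 959 in neither genotype. With a limit of 2-fold in place of 1.5-fold 48 and 4 probes were opposed. Abhd17c, just inside the opposed class, was 1.501-fold lower after training in wild type, and Kcnn2, just outside it, 1.499-fold lower. With KNL replicate 1 left out 137 and 27 probes were opposed and 1197 and 431 moved in the knockout alone, and with KNL replicate 2 left out these were 66 and 8 against 528 and 77. Over all 8 fits with 1 array left out the opposed classes held 38 to 718 and 1 to 336 probes, the fewest without KTL replicate 2 and the most without WTL replicate 1 and WNL replicate 1, respectively, so that their size depended on single arrays of every group.

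**Figure D2:**
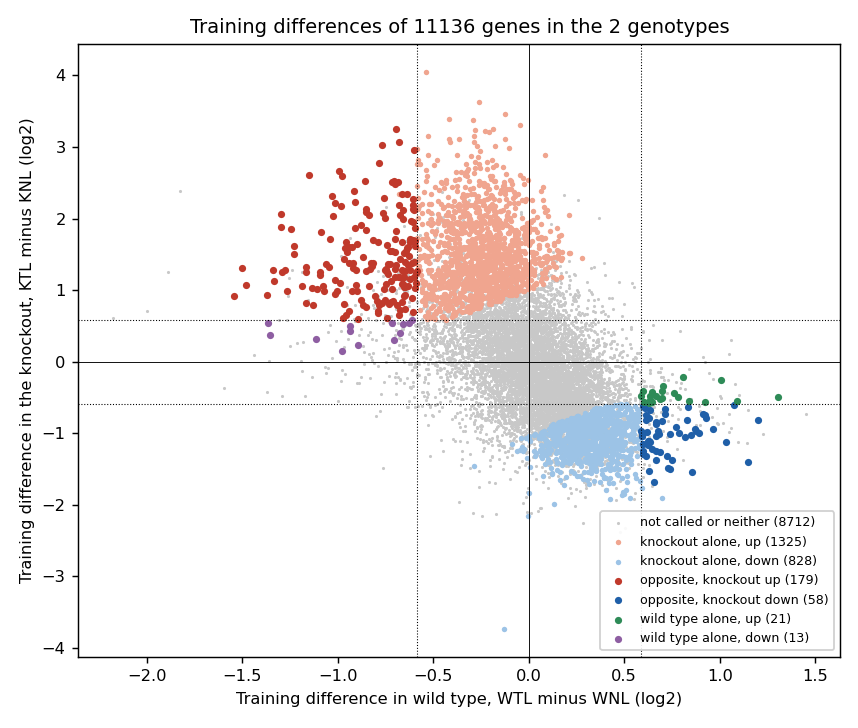
Training difference of each of 11136 genes in wild type (x axis, WTL minus WNL, log2) and in the knockout (y axis, KTL minus KNL, log2), colored by class, with dotted lines at 1.5-fold. Genes called above 0 fill the upper left (1325 knockout alone, 179 opposed) and genes called below 0 the lower right (828 and 58), and the range of training differences is wider in the knockout than in wild type.

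The 4 groups fell in a regular order in these genes. In genes of the knockout alone class that were higher after training, the median level relative to WNL was -0.25 in WTL, -1.50 in KNL and -0.05 in KTL on the log2 scale. In the opposed genes that were higher after training in the knockout, the medians were -0.76 in WTL, -1.49 in KNL and -0.18 in KTL. The mirror classes had medians of 0.32 and 0.67 in WTL, 1.03 and 1.19 in KNL and -0.02 and 0.16 in KTL. Thus the medians of KTL lay close to WNL in all 4 classes, and KNL lay farthest away. Both KNL arrays lay below the other 6 arrays in 1442 of the 1527 genes above 0 (94.4%) and above them in 871 of the 918 genes below 0 (94.9%), against 28.0% and 36.6% of all genes tested. These positions follow in part from the contrast itself, which contains the KNL arrays, and are no test.

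**Figure D3:**
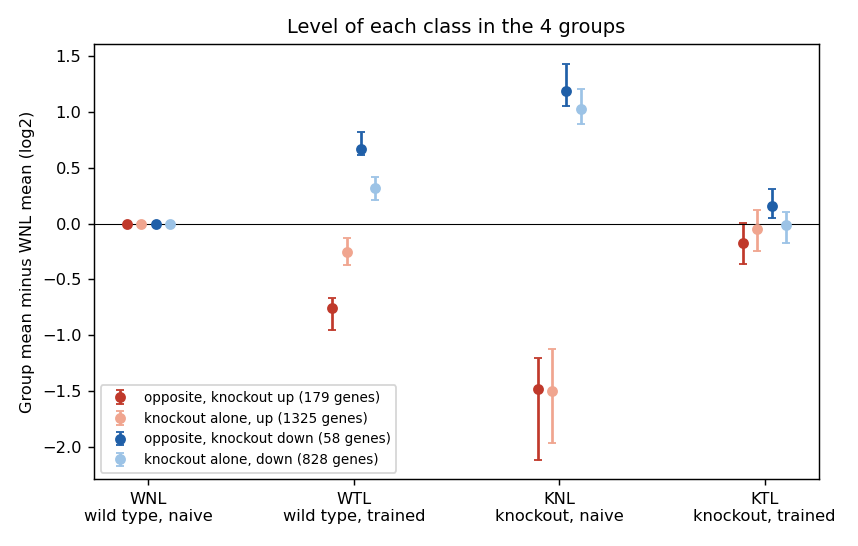
Median over the genes of each class of the group mean minus the WNL mean (y axis, log2) in WNL, WTL, KNL and KTL (x axis), with bars from the lower to the upper quartile of genes. In the 4 opposed and knockout alone classes KNL holds the extreme median, between -1.50 and 1.19, WTL lies on the same side of WNL as KNL, and KTL lies within 0.18 of WNL.

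The opposed genes that were higher after training in the knockout and lower in wild type are described by those with large changes in both genotypes and by genes of the lists. Dusp6, a phosphatase that inactivates ERK and is itself induced by ERK, read 1436 and 1452 on the WNL arrays, 512 and 744 on WTL, 430 and 364 on KNL and 998 and 1256 on KTL. All 4 groups were separate, with naive wild type highest and naive knockout lowest. The knockout rose 2.83-fold with training and the wild-type arrays were 2.34-fold lower, and the interaction was 2.73 ± 0.30 (SE, log2, limma adjusted p = 0.0016, kept in 5 of 8).

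Mark3, a kinase of microtubule-associated proteins, read 660 and 589 in WNL, 201 and 227 in WTL, 306 and 233 in KNL and 445 and 574 in KTL, and its interaction was 2.47 ± 0.27 (adjusted p = 0.0015, 6 of 8). Here WTL was the lowest group, just below KNL, and both trained knockout arrays lay above these groups. Psd2, a guanine exchange factor of Arf proteins, read 568 and 569 in WNL, 155 and 261 in WTL, 246 and 173 in KNL and 471 and 557 in KTL, with an interaction of 2.81 ± 0.39 (2 of 8). Its paralog Psd3 read 979 and 1224, 791 and 381, 141 and 131, and 853 and 865 in the same order of groups, with an interaction of 3.65 ± 0.45 (3 of 8). In Psd2 WTL and KNL overlapped, while in Psd3 KNL was far below every other group.

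Lrrc7, the postsynaptic scaffold densin-180, read 1194 and 1199 in WNL, 305 and 779 in WTL, 259 and 220 in KNL and 905 and 1096 in KTL, an interaction of 3.36 ± 0.57 (2 of 8). Camk1d, a calcium- and calmodulin-dependent kinase, read 1538 and 1479, 584 and 694, 466 and 274, and 1191 and 1410, an interaction of 3.10 ± 0.35 (5 of 8). Both genes had high WNL and KTL arrays and low WTL and KNL arrays, with no overlap between these pairs of groups. A second, dimmer probe of Camk1d had an interaction of -0.07 and was not called.

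The other genes of this class with large changes in both genotypes were Timm10, a chaperone of mitochondrial protein import, with an interaction of 3.18 ± 0.46, Ube4b, a ubiquitin chain elongation factor, with 2.62 ± 0.46, Ube2q1, a ubiquitin-conjugating enzyme, with 2.55 ± 0.47, Bicdl1, an adaptor of dynein transport, with 2.84 ± 0.21, and Cyb561d1, of the cytochrome b561 family, with 2.56 ± 0.22. Bicdl1 and Cyb561d1 kept their calls in 8 of 8 fits, and Timm10, Ube4b and Ube2q1 in 2 of 8. The probes of Ube2q1 disagreed, since a dimmer probe was called below 0 at -1.31. Ikbkb, the kinase that releases NF-kappaB from its inhibitor, read 1279 and 1411 in WNL, 492 and 726 in WTL, 665 and 450 in KNL and 1166 and 1465 in KTL, an interaction of 2.42 ± 0.37 (3 of 8).

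The opposed genes that were lower after training in the knockout and higher in wild type were fewer, with 58 genes. Stat4, a transcription factor of cytokine signaling, read 2101 and 4207 in WNL, 6191 and 7011 in WTL, 8628 and 8711 in KNL and 3412 and 3148 in KTL, an interaction of -2.55 ± 0.42 (2 of 8). KTL lay within the spread of WNL, and the WTL and KNL arrays lay above both. Dbh, the enzyme that makes noradrenaline from dopamine, read 212 and 321 in WNL, 494 and 575 in WTL, 866 and 734 in KNL and 399 and 337 in KTL, an interaction of -2.15 ± 0.31 (adjusted p = 0.0034, 3 of 8). All 4 groups of Dbh were separate, in the order WNL, KTL, WTL and KNL from low to high.

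Sh2d2a, an adaptor of T cell signaling, read 134 and 186, 245 and 333, 427 and 480, and 121 and 201 in WNL, WTL, KNL and KTL, an interaction of -2.40 ± 0.41 (1 of 8), and a second probe was called the same way at -1.59. Abca4, a transporter of retinoids in photoreceptors, had an interaction of -1.89 ± 0.32 (3 of 8), Inmt, an indolethylamine methyltransferase, of -1.80 ± 0.19 (6 of 8), and Klf17, a Krüppel-like factor, of -1.87 ± 0.22 (4 of 8). Efcab8, Zc3h18 and Ahsg of the same class kept their calls in 1, 0 and 0 of the 8 fits. Syt3, a synaptotagmin with high affinity for calcium, was the only synaptic vesicle gene among them: it read 789 and 639 in WNL, 1038 and 1329 in WTL, 1804 and 2450 in KNL and 801 and 702 in KTL, an interaction of -2.21 ± 0.29 (4 of 8).

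The genes of the wild type alone class included Fos, an immediate early transcription factor that marks recently active neurons. Fos read 1024 and 1105 on the WNL arrays, 542 and 445 on WTL, 492 and 383 on KNL and 528 and 551 on KTL. Naive wild type stood alone above the other 3 groups, and WTL overlapped both knockout groups. The interaction was 1.43 ± 0.23 (SE, log2, limma adjusted p = 0.0044, 2 of 8), and the training difference itself was -1.12 in wild type (adjusted p = 0.15) and 0.31 in the knockout (adjusted p = 0.13).

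Lmbrd1, which carries cobalamin out of lysosomes, was the gene of this class with the largest difference in wild type: it read 4870 and 5585 in WNL, 1550 and 2649 in WTL, 3625 and 2662 in KNL and 4079 and 5024 in KTL, an interaction of 1.91 ± 0.40 (1 of 8). A dimmer probe of Lmbrd1, at the floor in KNL, was called at 1.61 but belonged to the knockout alone class, with a training difference of -0.20 in wild type. Slc16a6, a monocarboxylate transporter, read 691 and 709, 247 and 304, 474 and 286, and 466 and 487, an interaction of 1.73 ± 0.34 (1 of 8). In both genes WTL was lowest, although one KNL array of Slc16a6 lay among the WTL arrays, and KTL overlapped WNL in Lmbrd1 and KNL in Slc16a6. Aqp8, an aquaporin, Klrg1, a receptor of natural killer cells, and Arv1, a sterol transport protein, were higher in WTL than in WNL, with interactions of -1.80 ± 0.34 (0 of 8), -1.63 ± 0.22 (2 of 8) and -1.26 ± 0.24 (1 of 8).

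**Figure D4:**
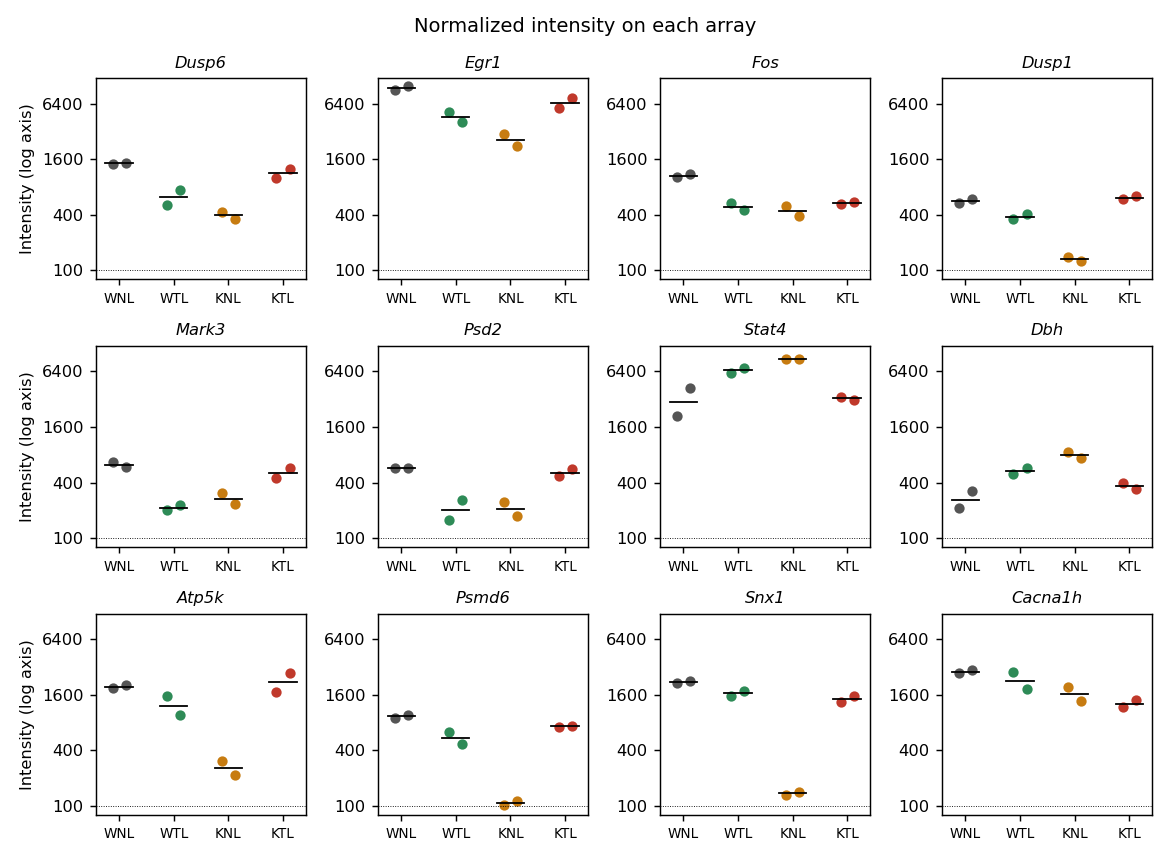
Normalized intensity (y axis, log scale, dotted line at the floor of 100) of 12 genes on each array of WNL, WTL, KNL and KTL (x axis), with a bar at the mean of each group, taken on the log scale. Dusp6, Egr1, Mark3 and Psd2 are high in WNL and KTL, Stat4 and Dbh are high in WTL and KNL, Atp5k, Psmd6 and Snx1 are low in KNL, and Cacna1h shows no interaction.

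Immediate early genes split into members above and below 0. Of 39 measured, 10 were called above 0 and 5 below (13.7% and 8.24% over all genes), with a median interaction of 0.19 against -0.08 over all genes, and this median turned to -0.03 where only probes above the floor on every array were kept. With 1 array left out 3 to 9 were called above 0 and 0 to 6 below. Those above 0 were Dusp1, Dusp6, Egr1, Bdnf, Btg2, Ptgs2, Egr4, Fos, Per1 and Ier3. Those below 0 were Klf4, Ppp1r15a, Fosl2, Jund and Rheb.

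Egr1, a zinc finger factor needed for late long-term potentiation, read 9101 and 9945 on the WNL arrays, 5202 and 4077 on WTL, 3033 and 2209 on KNL and 5720 and 7287 on KTL, an interaction of 2.37 ± 0.30 (limma adjusted p = 0.0023, 4 of 8). Dusp1, a phosphatase of p38, JNK and ERK that glucocorticoids also induce, read 535 and 586 in WNL, 359 and 403 in WTL, 139 and 126 in KNL and 589 and 636 in KTL, an interaction of 2.77 ± 0.17 (8 of 8). Bdnf, the neurotrophin of activity-dependent plasticity, read 479 and 439, 331 and 367, 135 and 117, and 444 and 383, an interaction of 2.11 ± 0.19 (8 of 8). In all 3 genes the WTL arrays lay between WNL and KNL without overlap, and KTL lay above WTL.

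Not every gene of the class behaved so. Arc, the cytoskeletal protein that reaches active dendrites, read 1795 and 2221 in WNL, 2069 and 1678 in WTL, 1401 and 1192 in KNL and 1447 and 1771 in KTL, an interaction of 0.41 ± 0.26 (adjusted p = 0.22). Npas4, an early factor restricted to neurons, read 378 and 468, 286 and 216, 347 and 254, and 295 and 386, an interaction of 0.94 ± 0.33 (adjusted p = 0.051). Junb read 2348 and 2320, 2210 and 2412, 3440 and 3724, and 2450 and 2286, an interaction of -0.58 ± 0.15 (adjusted p = 0.019). The WNL, WTL and KTL arrays of Junb lay together and KNL above them, so this member of the Jun family and Fos, its dimer partner, differed from the other groups in different arrays. Arc, Npas4, Junb, Bdnf and some genes further on were named after their values were seen.

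The MAPK pathway held calls of both signs in number, 23 above and 19 below 0 of 137 genes, with a median of 0.11. Above 0 were Nlk (4.58), an atypical MAP kinase, Mapk8ip1 (2.83), the scaffold of JNK signaling, Map3k4 (2.51), Prkacb (2.12), which encodes the beta catalytic chain of PKA, Map2k4 (1.94), Mapk14 (1.91), which is p38alpha, Mapk7 (1.88), which is ERK5, and Akt1 (1.84). Below 0 were Rasgrp2 (-1.80), Dusp10 (-1.71), Sos1 (-1.46), Braf (-1.36), Map2k6 (-1.31), Mapk13 (-1.21) and Mapk3 (-1.07), which is ERK1. Over all genes 179 of the 1527 above 0 were opposed and 13 were of wild type alone, and 828 of the 918 below 0 were of the knockout alone. Of the 23 MAPK genes above 0, 6 were opposed and 1 was of wild type alone, and all 19 below 0 were of the knockout alone. These shares were 16.8% and 13.9%, against 13.7% and 8.24% of all genes, and with KNL replicate 2 left out 5 were called above and 1 below 0.

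Nlk had the largest interaction of all genes, and its evidence was uneven. Its brightest probe read 1949 and 2287 in WNL, 2200 and 965 in WTL, 153 and 103 in KNL and 1329 and 3247 in KTL, so that KNL lay apart while both trained groups were spread over more than 2-fold. The call was kept in 1 of 8 fits, and 2 dimmer probes of Nlk had interactions of -0.82 and -0.02. Mapk14 read 726 and 869, 811 and 740, 315 and 278, and 1037 and 1130 in the same order of groups, and its call was kept in 5 of 8.

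Promoters of Dusp1 and Fos are shown because the cyclic AMP response element (CRE), the site of CREB, is the textbook element of early genes. Each is the RefSeq window from 250 bases before to 50 bases after the first listed transcription start, build GRCm38.p6, 5′ to 3′ on the gene's strand. Capitals mark the palindromic CRE TGACGTCA in Dusp1 (chr17:26508423-26508722, minus strand) and the CRE core TGACG on either strand in Fos (chr12:85473640-85473939, plus strand) and Dbh (chr2:27165257-27165556, plus strand), the last from a gene with an interaction below 0.
Dusp1: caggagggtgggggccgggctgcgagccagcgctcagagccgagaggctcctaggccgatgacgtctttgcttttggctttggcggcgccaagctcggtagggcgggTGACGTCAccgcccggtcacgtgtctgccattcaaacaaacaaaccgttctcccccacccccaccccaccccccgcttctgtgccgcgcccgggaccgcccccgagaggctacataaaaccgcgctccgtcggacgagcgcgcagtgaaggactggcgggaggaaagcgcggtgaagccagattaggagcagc
Fos: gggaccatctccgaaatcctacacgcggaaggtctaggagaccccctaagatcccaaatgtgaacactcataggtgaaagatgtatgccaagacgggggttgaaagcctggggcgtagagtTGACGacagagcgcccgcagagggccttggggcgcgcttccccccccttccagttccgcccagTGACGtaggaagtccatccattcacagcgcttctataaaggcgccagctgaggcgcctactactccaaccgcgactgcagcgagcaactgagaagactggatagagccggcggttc
Dbh: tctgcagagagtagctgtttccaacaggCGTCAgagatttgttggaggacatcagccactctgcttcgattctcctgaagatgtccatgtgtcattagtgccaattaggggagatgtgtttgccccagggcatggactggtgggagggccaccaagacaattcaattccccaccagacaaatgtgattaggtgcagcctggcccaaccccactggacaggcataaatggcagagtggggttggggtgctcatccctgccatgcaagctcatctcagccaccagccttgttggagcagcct

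The full CRE stood in 51 of 1235 genes above 0 with a window (4.13%), in 15 of 736 below 0 (2.04%) and in 271 of all 8975 measured genes with one (3.02%). The core was common, in 34.25%, 23.1% and 30.0% of the same genes. Each window shown above holds a match, which not every early gene above 0 had. Bdnf and Dusp6 had neither the full CRE nor the core, Btg2 had the full CRE, and Egr4, Ptgs2 and Per1 had the core alone. A match is a description of these letters and not evidence of binding, and windows of genes above 0 were also richer in CpG, with a median of 22 against 14 below 0 and 20 over all.

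The called genes of energy metabolism were mostly above 0. Over all genes 13.7% were called above 0 and 8.24% below, with a median interaction of -0.08. Of 24 genes of the citric acid cycle 9 were called above 0 (37.5%) and 0 below, with a median of 0.90. Of 69 genes of oxidative phosphorylation 14 were above (20.3%) and 2 below (2.90%), with a median of 0.41. The medians of the training difference were 0.79 and 0.20 in the knockout and -0.10 and -0.04 in wild type. With 1 array left out 0 to 10 citric acid cycle genes and 1 to 17 oxidative phosphorylation genes were called above 0, and the lowest of these counts came without KTL replicate 2.

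Among the citric acid cycle enzymes, Fh1, fumarate hydratase, read 5276 and 4295 in WNL, 3687 and 2990 in WTL, 868 and 657 in KNL and 3447 and 3470 in KTL, an interaction of 2.72 ± 0.26 (6 of 8). Dld, the dihydrolipoamide dehydrogenase shared by pyruvate dehydrogenase and its relatives, read 1040 and 1069, 749 and 642, 274 and 155, and 989 and 1000, an interaction of 2.88 ± 0.36 (4 of 8), and Suclg1, a subunit of succinyl-CoA ligase, had 2.54 ± 0.33 (3 of 8). In all 3 the KNL arrays lay far below the other 6, and Dld, unlike the other enzymes of the cycle that were called, was also at least 1.5-fold lower in WTL than in WNL. Mdh1, Mdh2, Acly, Sdhb, Sdhc and Sdhd were above 0 as well, between 1.42 (Mdh2) and 2.65 (Sdhd).

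Of the respiratory chain and ATP synthase, Atp5g3, the ring-forming c subunit, read 12890 and 12880 in WNL, 10400 and 8930 in WTL, 1666 and 1485 in KNL and 12810 and 14420 in KTL, an interaction of 3.53 ± 0.18 (adjusted p = 0.0007, 8 of 8). Atp5k, the small e subunit of the same enzyme, read 1884 and 2018, 1546 and 959, 308 and 218, and 1736 and 2739, an interaction of 3.75 ± 0.44 (5 of 8). KNL lay far below all other arrays in both, and KTL overlapped WNL. Complex I contributed Ndufa5, Ndufa6, Ndufa13, Ndufb2, Ndufb3, Ndufb10 and Ndufv2, with interactions from 1.22 (Ndufa13) to 2.65 (Ndufb10). The 2 genes below 0 were Cox6b2 (-1.52), a testis isoform of a complex IV subunit, and Uqcrq (-1.19), a subunit of complex III.

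Ribosomal genes had called shares above 0 at or below that of all genes. Of 66 mitochondrial ribosomal genes 9 were above 0 (13.6%, against 13.7% of all genes) and 1 below (median 0.26), and of 32 cytosolic ones 2 were above 0 (6.25%) and 0 below, with a median of -0.03 that turned sign under several settings. Both counts above 0 went to 0 without KNL replicate 2 and without KTL replicate 2. The single mitochondrial gene below 0 was Mrps6, which read 3112 and 2518 in WNL, 2649 and 2471 in WTL, 1221 and 1449 in KNL and 100 and 100 in KTL, the floor. It fell at least 13.3-fold in the knockout with training, its interaction was -3.60 ± 0.20 (8 of 8), and it was the most negative of all genes.

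By limma at the same thresholds and by the brightest probe of each gene, Mrps6 and Kcne2 were the only genes called between KTL and WTL (0.018% of genes). Over all probes, dimmer ones and those without a symbol included, 4 were called between these trained groups. Kcne2, a potassium channel subunit abundant in choroid plexus, read 432 and 482 in WNL, 470 and 447 in WTL, 384 and 358 in KNL and 131 and 136 in KTL, an interaction of -1.48 ± 0.15 (6 of 8). In both genes KTL and not KNL was the group farthest from WNL.

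The called genes of protein breakdown were mostly above 0. Of 40 proteasome genes 11 were called above 0 (27.5%) and 1 below (median 0.71), and of 97 genes of ubiquitin-mediated proteolysis 24 above (24.7%) and 5 below (median 0.34), against 13.7% and 8.24% of all genes. The interaction had a positive sign, called or not, in 28 of the 40 and 58 of the 97, against 5167 of all 11136 genes. Psmd6, a subunit of the regulatory lid, read 899 and 966 in WNL, 628 and 467 in WTL, 102 and 112 in KNL and 718 and 737 in KTL, an interaction of 3.55 ± 0.22 (8 of 8). Psmd14, the deubiquitinase of the lid, read 1760 and 1771, 1650 and 1631, 257 and 144, and 1414 and 1653, an interaction of 3.10 ± 0.37 (5 of 8). Psmd6 was lower in WTL than in WNL and Psmd14 only slightly so, while KNL was lowest in both.

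Further proteasome genes above 0 were Psmc5 (2.75) and Psmc6 (1.72), ATPases of the base, Psmd12 (2.71), Psmd10 (2.49), Psmd9 (2.17), Psmd4 (2.08), which binds ubiquitin chains, Sem1 (1.99), Psma3 (1.41) and Psmd2 (1.40). The gene below 0 was Psmb8 (-1.14), the inducible subunit of the immunoproteasome, whose second probe was called above 0 at 1.09 and whose call was kept in 0 of 8. With 1 array left out 2 to 14 proteasome genes and 0 to 25 ubiquitin genes were called above 0.

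Of the ubiquitin enzymes, Ube2e2 read 1077 and 1322 in WNL, 877 and 782 in WTL, 156 and 100 in KNL and 1122 and 1096 in KTL, an interaction of 3.68 ± 0.31 (7 of 8), and Ube2n, which builds K63-linked chains, had 2.91 ± 0.24 (7 of 8) with a second probe called at 2.57. Pja1, a ligase that the list does not hold, read 2216 and 2489, 1682 and 1251, 255 and 216, and 2435 and 2034, had an interaction of 3.94 ± 0.26, was of the opposed class and kept its call in 8 of 8. Of the list, those below 0 were Ube2r2, Smurf1, Socs1, Herc2 and Fbxo2, from -1.63 (Ube2r2) to -1.06 (Fbxo2).

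Promoters of 3 of these genes are shown for the site of nuclear respiratory factor 1 (NRF1), an activator of nuclear genes of the respiratory chain, with a proteasome gene beside them. Capitals mark matches on either strand to the NRF1 motif, which is GCGC, any base and TGCGC, in Sdhd (chr9:50603800-50604099, minus strand), Dld (chr12:31351422-31351721, minus strand) and Psmd14 (chr2:61711444-61711743, plus strand), in the same windows and build as above.
Sdhd: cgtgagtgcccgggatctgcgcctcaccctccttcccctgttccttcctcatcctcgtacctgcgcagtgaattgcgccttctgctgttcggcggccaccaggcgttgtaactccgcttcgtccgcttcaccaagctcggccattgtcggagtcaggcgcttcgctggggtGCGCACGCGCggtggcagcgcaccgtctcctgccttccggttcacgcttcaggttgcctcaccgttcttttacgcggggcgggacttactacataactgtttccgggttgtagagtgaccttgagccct
Dld: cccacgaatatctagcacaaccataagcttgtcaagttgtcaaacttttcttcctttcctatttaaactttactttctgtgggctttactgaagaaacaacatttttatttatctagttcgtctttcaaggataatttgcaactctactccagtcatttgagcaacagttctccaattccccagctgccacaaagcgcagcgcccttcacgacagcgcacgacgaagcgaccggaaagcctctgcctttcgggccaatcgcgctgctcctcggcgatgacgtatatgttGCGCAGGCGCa
Psmd14: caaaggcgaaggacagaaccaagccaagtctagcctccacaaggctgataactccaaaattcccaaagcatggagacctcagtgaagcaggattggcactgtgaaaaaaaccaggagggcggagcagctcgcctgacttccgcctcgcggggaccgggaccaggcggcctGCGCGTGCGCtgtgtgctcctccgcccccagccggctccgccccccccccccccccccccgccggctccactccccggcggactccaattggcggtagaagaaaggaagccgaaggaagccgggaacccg

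This motif stood in 154 of 1235 windows of genes above 0 (12.5%), in 35 of 736 of genes below 0 (4.76%) and in 831 of all 8975 (9.26%). The ETS motif CCGGAAG differed in the same direction, with 18.95%, 9.51% and 15.98%, and the TATA box TATAAA in the other, with 6.88%, 12.8% and 8.41%. The GC box GGGCGG stood in 65.8%, 51.4% and 62.0%, and CCAAT in 38.1%, 36.4% and 37.9%. Median GC content was 61.7% above 0 and 60.3% over all, and the CG-rich motifs cannot be told apart from it. Each of the windows shown holds an NRF1 match, as do those of Atp5g3, Atp5k and Psmc5. Windows of Fh1, Suclg1, Sdhb, Psmd6 and Psmd12 had no NRF1 match.

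Most called genes of RNA splicing, endocytosis and protein folding were above 0, although most members were not called. Over all genes 13.7% were called above 0 and 8.24% below. Of 81 spliceosome genes 17 were called above (21.0%) and 3 below 0 (3.70%), with a median of 0.36. Of 78 genes of endocytosis and the retromer 20 were above (25.6%) and 1 below (1.28%), with a median of 0.53. Of 34 chaperones and genes of endoplasmic reticulum stress 10 were above (29.4%) and 0 below, with a median of 0.56. With 1 array left out the counts above 0 were 1 to 20, 3 to 20 and 1 to 11. Lsm8, of the ring that binds U6 RNA, read 475 and 487 in WNL, 310 and 278 in WTL, 109 and 103 in KNL and 583 and 626 in KTL, an interaction of 3.22 ± 0.15 (8 of 8). Cdc5l, of the complex around Prp19, had 3.44 ± 0.36 (5 of 8).

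Snx1, a sorting nexin of the retromer, read 2173 and 2246 in WNL, 1547 and 1764 in WTL, 131 and 142 in KNL and 1331 and 1561 in KTL, an interaction of 3.82 ± 0.18 (8 of 8). Vps26b, a subunit of the retromer core, read 721 and 731, 561 and 409, 116 and 110, and 836 and 919, an interaction of 3.56 ± 0.23 (8 of 8). Clta, a clathrin light chain, had 3.23 ± 0.42 (2 of 8). KNL was the lowest group in all 3, and Vps26b and Clta were in the opposed class.

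Among chaperones, Hsp90aa1, the inducible cytosolic Hsp90, read 8962 and 8155 in WNL, 7138 and 6955 in WTL, 1083 and 685 in KNL and 8269 and 7996 in KTL, an interaction of 3.52 ± 0.30 (7 of 8), and a second probe was called at 2.29. Hspa8, the constitutive Hsc70 that uncoats clathrin vesicles, read 4094 and 4102, 3286 and 2237, 790 and 691, and 2402 and 3031, an interaction of 2.46 ± 0.30 (3 of 8). Hspa5, the chaperone BiP of the endoplasmic reticulum, read 620 and 786, 650 and 593, 112 and 101, and 578 and 581, an interaction of 2.62 ± 0.20 (8 of 8). Hspa8 was opposed, with WTL below WNL, while WTL and WNL overlapped in Hspa5.

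Genes that respond to glucocorticoids, the hormones of the stress response, were above 0 in 9 of 29 cases (31.0%, against 13.7% of all genes) and below in 2, with a median of 0.61. Where 1 array was left out, 2 to 8 were above 0 and 0 to 1 below, the fewest above 0 without KTL replicate 2. Nfkbia, the inhibitor of NF-kappaB, read 506 and 447 in WNL, 399 and 363 in WTL, 100 and 100 in KNL and 537 and 682 in KTL, so that it rose at least 6.05-fold in the knockout, with an interaction of 2.92 ± 0.21 (8 of 8). Nr3c1, the glucocorticoid receptor, was at the floor on both KNL arrays and read 248 and 265 in KTL, 298 and 252 in WNL and 218 and 240 in WTL, an interaction of 1.62 ± 0.17 (5 of 8). Nr3c2, the mineralocorticoid receptor, went the other way at -1.53. Rasd1 (2.09), Arrdc3 (2.02), Ddit4 (1.97), Mertk (1.53), Per1 (1.07) and Fkbp5 (1.03) were above 0 and Hif3a (-1.92) below. No gene of the list was in an opposed class, against 179 of 1527 above 0 and 58 of 918 below 0 over all genes. Per1 and Hif3a kept their calls in 1 of 8 and Rasd1 in 3.

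Of the lists closest to plasticity, long-term potentiation had shares near those of all genes. It had 6 genes above and 3 below 0 of 46 (13.04% and 6.52%), with a median of -0.01 whose sign changed under 11 settings. Neurotrophin signaling had 17 above and 7 below of 77 (22.1% and 9.09%), with 3 to 17 above 0 where 1 array was left out, and a median of 0.02 whose sign changed under 2. Ppp1cb, a catalytic subunit of protein phosphatase 1, read 6326 and 6471 in WNL, 5426 and 5814 in WTL, 796 and 672 in KNL and 4834 and 4831 in KTL, an interaction of 2.91 ± 0.17 (8 of 8), though a dimmer probe read -0.69. Crk, an adaptor of receptor tyrosine kinases, had 2.25 ± 0.13 (8 of 8).

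Few receptor genes of glutamate and GABA were measured, and the difference between these lists was not tested. Shares above and below 0 were 7.69% and 7.69% for glutamate receptors and 33.3% and 0% for the GABA list. Over all genes they were 13.7% and 8.24%. Of 13 ionotropic glutamate receptor genes Gria3 was above 0, with a second probe called below 0 and the call kept in 0 of 8, and Grin2b was below 0 at -1.12 ± 0.14 near the floor. Of 15 genes of GABA synthesis, transport and receptors 5 were above 0 and 0 below, with a median of 0.21, and 0 to 5 were above 0 with 1 array left out. Slc32a1, the vesicular transporter of GABA, read 2973 and 2620 in WNL, 1862 and 1677 in WTL, 646 and 490 in KNL and 2433 and 2444 in KTL, an interaction of 2.77 ± 0.22 (7 of 8). Gabrb1, a receptor subunit, read 1134 and 1234, 1160 and 865, 307 and 313, and 1425 and 1409, an interaction of 2.43 ± 0.22 (7 of 8). Gabra2, Gabrb2 and Gabra5 had 1.63, 1.33 and 1.06, and Gabra2 kept its call in 1 of 8.

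Other calcium channel genes did not share a sign. Of 18 measured 3 were above 0 (16.7%, against 13.7% of all genes). These were Cacnb4 (2.07) and Cacna1c (1.13), a beta subunit and the pore of Cav1.2, and Cacng3 (1.61), a regulator of AMPA receptors. Another 3 were below 0 (16.7%, against 8.24% of all genes), namely Cacng6 (-1.26), Cacnb2 (-1.19) and Cacng4 (-1.17). Leaving out 1 array gave 0 to 3 above and 0 to 4 below 0, and Cacng6 kept its call in 1 of 8. Cacna1g, the pore of the T-type channel Cav3.1, read 563 and 420 in WNL, 358 and 457 in WTL, 220 and 243 in KNL and 360 and 393 in KTL. Its interaction of 0.97 ± 0.26 did not pass (adjusted p = 0.023), although KNL lay below the other groups. Of 56 potassium channel genes 7 were above 0 (12.5%) and 4 below (7.14%), near the shares of all genes, with a median of -0.48.

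**Figure D5:**
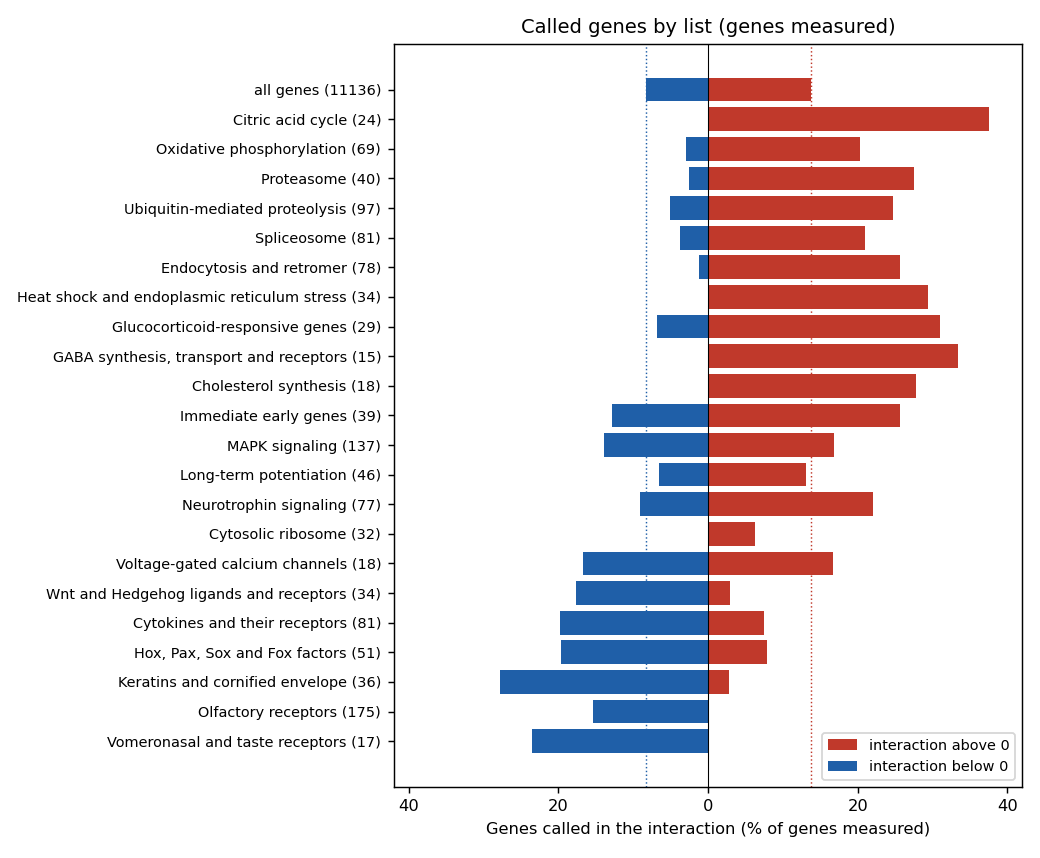
Share of the measured genes of each list (y axis, number measured in brackets) that was called in the interaction (x axis, percent), red to the right for interactions above 0 and blue to the left for those below 0, with dotted lines at the shares over all genes (13.7% and 8.24%). The citric acid cycle has the largest share above 0 and the keratins the largest below it, and olfactory and vomeronasal receptors have none above 0.

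Genes below 0 included families known mainly from sensory epithelia and skin. Over all genes 8.24% were called below 0 and 13.7% above. Of 175 olfactory receptor genes 27 were called below 0 (15.4%) and 0 above, with a median of -1.13. Called or not, only 4 of the 175 had an interaction above 0, against 5167 of all 11136 genes. Vomeronasal and taste receptors had 4 of 17 below 0 (23.5%) and 0 above (median -1.15). Keratins and proteins of the cornified envelope had 10 of 36 below (27.8%) and 1 above (2.78%), with a median of -1.01. The calls of these 2 lists also depended on single arrays, KNL replicate 2 and KTL replicate 2 among them. Over all alternatives the medians ranged from -1.3 to -1.045 for vomeronasal and taste receptors and from -1.21 to -0.80 for keratins. Olfr1009 read 774 and 668 in WNL, 1129 and 1277 in WTL, 2427 and 2291 in KNL and 1011 and 688 in KTL, an interaction of -2.24 ± 0.28 (4 of 8). Krt88 read 298 and 306, 354 and 426, 714 and 752, and 304 and 264, an interaction of -1.74 ± 0.19 (6 of 8). In both the KNL arrays were highest and WTL was next.

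Of the 175 olfactory receptor genes, 10 also read at least 1.5-fold higher in WTL than in WNL without overlap, against 1.51% of all genes. Without KNL replicate 1 13 olfactory receptors were called below 0, without KNL replicate 2 it was 1, and without KTL replicate 2 it was 0. Related receptors can share sequence and their probes may not tell them apart, so the receptors are not independent of each other.

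Cytokines and their receptors had 16 genes below and 6 above 0 of 81 (median -0.87), genes of hematopoietic lineages 6 below and 1 above of 24 (median -1.01), Wnt and Hedgehog ligands and receptors 6 below and 1 above of 34 (median -1.02), and Hox, Pax, Sox and Fox factors 10 below and 4 above of 51 (median -0.81). The shares below 0 lay between 17.6% (Wnt and Hedgehog) and 25% (hematopoietic), against 8.24% of all genes. In each list 0 genes were below 0 without KTL replicate 2, and without KNL replicate 2 the counts were 2, 0, 0 and 0. Cxcl10, an interferon-induced chemokine, read 141 and 133 in WNL, 171 and 206 in WTL, 331 and 335 in KNL and 146 and 110 in KTL, an interaction of -1.85 ± 0.23 (4 of 8). Cd3e, part of the T cell receptor, read 547 and 624, 593 and 840, 1081 and 1361, and 496 and 428, an interaction of -1.67 ± 0.29 (1 of 8). The chemokine Cxcl12 (1.79) and the receptor-like Il1rapl1 (2.02), both of which neurons or their precursors use, were among those above 0.

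These families are dim on the array, and intensity moved with the calls. Over 10 bins of probes ordered by mean intensity, the share called above 0 went from 0.784% in the dimmest to 19.1% in the fifth and 9.82% in the brightest, and the share below 0 from 4.82% in the dimmest to 10.9% in the sixth and 3.19% in the brightest. The median interaction was -0.30 in the second and -0.02 in the brightest. The part of intensity in the results of these families was not tested.

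Markers of hippocampal cells were called with both signs, except those of astrocytes, and the number called in each list depended on single arrays. Among neuron markers Grin2b was called below 0, as was Npy among interneuron markers. The markers named with their values in this paragraph were all above 0. Over all genes 13.7% were called above 0 and 8.24% below. Of 26 markers of neurons 6 were above 0 (23.08%) and 2 below (7.69%), with a median of 0.14. Of 21 of hippocampal subfields 5 were above (23.81%) and 1 below (4.76%), with a median of 0.28. Astrocytes and oligodendrocytes had shares above 0 near that of all genes. Of 28 markers of astrocytes 4 were above (14.29%) and 0 below. Their median of 0.08 changed sign without WTL replicate 2 and without KNL replicate 2. Of 24 of oligodendrocytes 3 were above (12.5%) and 1 below (4.17%), with a median of 0.38. Of 23 of microglia 4 were above (17.39%) and 3 below (13.04%), with a median of 0.45. Gap43, a growth cone protein, read 2414 and 2297 in WNL, 2453 and 1902 in WTL, 193 and 129 in KNL and 1987 and 1517 in KTL, an interaction of 3.58 ± 0.34 (7 of 8). Neurod6 (3.19), Neurod1 (2.25), Prox1 (2.01), of dentate granule cells, Fibcd1 (1.99), of area CA1, and Calb1 (1.81) were above 0 too, and of these Neurod6 kept its call in 2 of 8 and Fibcd1 in 8.

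Summed over its list, the intensity of neuron markers lay between 280400 and 311200 on all 8 arrays and that of interneuron markers between 63080 and 71590. Oligodendrocyte markers summed to 92850 and 99830 in KNL and to between 126900 and 133200 on the other arrays. Choroid plexus markers summed to 67920 and 68430 in WNL, 52650 and 55180 in WTL, 26840 and 29950 in KNL and 27600 and 28810 in KTL. Of these 22 markers 6 were below 0 in the interaction (27.3%) and 1 above (4.55%), against 8.24% and 13.7% of all genes. Endothelial and mural markers, with 3 above and 4 below of 21 (14.29% and 19.05%), summed to 21110 and 22280 in KNL and to between 14170 and 18070 elsewhere. In pooled tissue fewer cells of a type and less RNA per cell cannot be told apart, and the part of cell composition in the results was not tested.

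Of the remaining genes with the largest interactions, those above 0 were Acsl4 (3.89), an acyl-CoA synthetase for arachidonate, Capn7 (3.79), a calpain, Ctbp1 (3.76), a corepressor, and Pccb (3.67), a subunit of propionyl-CoA carboxylase. Ctbp1 read 1409 and 1002 in WNL, 509 and 562 in WTL, 123 and 126 in KNL and 636 and 899 in KTL and kept its call in 8 of 8. Capn7 was at the floor on both KNL arrays and rose at least 8.13-fold in the knockout, with a call kept in 4 of 8. Acsl4, kept in 6 of 8, had 3 dimmer probes that did not pass, at 0.94, 0.79 and, at the floor, 0.0046.

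Those below 0 were Pcdhga2 (-2.61), a clustered protocadherin, Srrm4 (-2.44), the neural splicing factor of microexons, Ssu2 (-2.36), 4931400O07Rik (-2.35), Hrct1 (-2.35) and Gjd4 (-2.35), a connexin, whose second probe was called at -1.81. Srrm4 read 1752 and 2210 in WNL, 2550 and 3166 in WTL, 5032 and 4588 in KNL and 1608 and 1024 in KTL, with KNL highest, WTL next, and KTL lowest. Calls of these 6 genes were kept in 1 to 4 of 8. Dimmer probes that did not pass were also measured for Crk (-0.13), Cdc5l (0.35), Ikbkb (0.94), Il1rapl1 (-0.86), Abca4 (-1.38), Srrm4 (-0.71) and Cacna1c (-0.77 and -0.54). Over all 172 called genes that the naming rule or a later choice picked, 25 kept their calls in 8 of 8 fits, 48 in 5 to 7 and 99 in fewer.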

How the data were processed

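The intensity values were deposited by the authors as a series table of 8 one-colour (Cy5) arrays of left hippocampus on the Mouse Whole Genome OneArray: technical spots were averaged, and the methods give a floor of 100 and quantile normalization. The aligner and build behind the probe design are not given in the sources used here. Arrays carry no counts, so their number, 2 in each of 4 groups, limits the precision.

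Of 29922 probes, 13334 were blank on every array and 16588 were tested. The lowest deposited value was 7.23, so values were raised to 100, quantile normalized and set on the log2 scale, which left 6.64% to 6.86% of probes at the floor per array. A fold against a group at the floor on both arrays is a lower bound. Contrasts over all 4 groups were fitted with limma 3.58.1 in R 4.3.3 (4 residual and 2.45 prior degrees of freedom), with Benjamini-Hochberg adjustment over all probes and calls at an adjusted p under 0.01 and over 2-fold. The script was tested on simulated data. All contrasts share arrays, since KNL and KTL enter both the knockout difference and the interaction.

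Symbols were given to 13183 probes, 2099 of them updated, and a gene took its brightest probe. Of 381 called genes with several probes, another probe was called the same way in 85 and the opposite way in 26. The genes named were Cacna1h, genes the study names, the 10 largest called interactions on each side, the 8 opposed genes of each direction with the largest smaller change, the 6 of wild type alone with the largest change and up to 3 called genes of each list. Of the genes the study names, Ss18 (brightest probe not called, interaction 0.48, adjusted p = 0.039, and a dimmer probe, at the floor in WTL and KNL, called in the opposed class at 2.85, adjusted p = 0.0007), Ptprg (1.30, adjusted p = 0.039) and Lemd2 (1.03, called) are not described above, and 1 gene is not reported here. Members and lists were chosen with earlier results of these data known. Alternatives varied the floor, normalization, filter, test, threshold, class limit and the arrays included. Promoters are RefSeq windows on GRCm38.p6, found for 8975 of 11136 genes.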

Additional observations from a re-analysis of the deposited data

Results flagged for a closer look

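The interaction is the direct test of a difference between the genotypes under the same training, and by it 2207 probes lay above 0 and 1403 below 0 (limma, adjusted p under 0.01 and over 2-fold). Of these, 269 were opposed with the knockout higher after training and 96 were opposed with the knockout lower. The opposed genes picked for large changes in both genotypes, with an interaction above 0, were Lrrc7 (3.36), Timm10 (3.18), Camk1d (3.10), Bicdl1 (2.84), Psd2 (2.815), Ube4b (2.62), Cyb561d1 (2.56) and Ube2q1 (2.55). Those with an interaction below 0 were Stat4 (-2.55), Sh2d2a (-2.395), Dbh (-2.15), Efcab8 (-1.90), Abca4 (-1.89), Klf17 (-1.87), Zc3h18 (-1.84) and Inmt (-1.805). None of these genes passed limma's own test of training in wild type. Only Bicdl1 and Cyb561d1 of them kept their calls in every fit with 1 array left out. Dimmer probes of Camk1d (-0.07) and Abca4 (-1.38) were not called, and a dimmer probe of Ube2q1 was called below 0 at -1.31. A dimmer probe of Sh2d2a was called the same way at -1.59. With 2 arrays in a group, a single array far from the others could not be tested for.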

How the results depend on the processing

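No called probe changed sign under any alternative, and a change of call with the arrays left out follows in part from fewer samples; other causes were not tested. With 1 array left out the interaction had 241 to 3513 calls, 234 to 2241 above 0 and 7 to 1272 below. The opposed classes then held 38 to 718 (knockout up) and 1 to 336 (knockout down) probes, the knockout alone 196 to 1462 up and 6 to 913 down, wild type alone 0 to 82 and neither 0 to 30. The knockout training contrast had 930 to 3379 calls (841 to 2184 up, 89 to 1195 down), wild-type training 0 to 9, genotype in naive mice 1400 to 3423, genotype in trained mice 0 to 12, and 20 to 33 of the lists had more genes above than below 0. The lowest interaction counts came without KTL replicate 2 and the highest without WTL replicate 1.

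Testing against a 2-fold change (limma treat) left 153 calls, 152 above and 1 below 0, with 24 and 0 opposed, 128 and 1 in the knockout alone, 0 in wild type alone, 0 in neither and 17 lists; it left 251 calls (247 and 4) in the knockout, 459 for genotype in naive and 1 in trained mice. An adjusted p under 0.05 gave 5510 calls, 2655 of them below 0, with 164 opposed (knockout down), 2425 knockout alone (down), 109 wild type alone and 49 neither, 1 call in wild type and 40 between trained groups. Without a fold limit the knockout had 5911 calls (2793 down), naive genotype 6262, and 235 interaction probes moved in neither genotype. A floor of 50 and no floor gave 183 and 174 opposed (knockout down) and 10 and 8 calls between trained groups, and a trended robust spread 2.

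With a class limit of 2-fold the classes held 48 and 4 opposed, 841 knockout alone (down), 24 wild type alone and 915 neither. With a limit below 1.5-fold they held 862 and 691, 709, 11 and 0, by limma calls 0 and 0, 838, 0 and 959, and by unadjusted p 720 and 505, 13 wild type alone and 0 neither. Deviations of same-numbered arrays correlated at -0.249 to 0.432 between groups, highest for WTL and KNL. The replicate numbers thus showed no pairing common to all groups, although WTL and KNL deviated together in part. With the replicate number as a block there were 2447 calls, 1678 above and 769 below 0, with 684 knockout alone (down), 22 wild type alone, 8 neither and 1 between trained groups. Of 172 called genes named, the block kept 138.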
